A study of Arabidopsis thaliana with 24 samples.

Results

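RNA from roots of pxy seedlings was compared with RNA from roots of wild-type seedlings. The comparison used 7 of the 24 libraries of the series, namely pxy root replicates 1, 3 and 4 and WT root replicates 1 to 4, chosen by genotype and organ. Arabidopsis thaliana seedlings were 7 days old. The pxy plants carried pxy-5, the only allele of the gene PXY that was sampled, and the wild type (WT) was Col-0. The rest of the series held shoots of both genotypes and roots and shoots of a line that expresses CLE41 constitutively (41-OX). The library labelled pxy root replicate 2 was left out because it had the profile of a shoot. The design text gives 4 biological replicates per group, but whether seedlings were pooled is not given in the sources used here. The p-values below measure the spread between these libraries. They come from bulk roots, where fewer cells of a type and less RNA per cell cannot be told apart.

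PXY, also known as TDR, is a leucine-rich repeat receptor kinase of the procambium and cambium, the dividing cells between xylem and phloem. Its ligand is TDIF, a short peptide cut from the products of CLE41 and CLE44, which are made in the phloem. The receptor promotes division through the homeobox genes WOX4 and WOX14, and it represses xylem differentiation through the kinase BIN2 and the transcription factor BES1. Loss of PXY is best known for disordered vascular bundles in the stem and hypocotyl, where phloem and xylem are no longer kept apart by a regular file of dividing cells.

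The 7 root libraries held 7897789 to 9256266 counts in pxy and 9496863 to 11631762 counts in WT. In an organ check, 170 genes specific to WT roots and 350 specific to WT shoots were used, each at 20 CPM or more in the organ it marked and at least 50-fold lower in the other organ. CPM are counts scaled to a common library total. The genes were chosen from these same WT roots and the WT shoots, so the WT shares are fixed in part by that choice. The root-specific genes averaged 89.4% to 104% of the WT root mean in pxy roots and 93.3% to 111% in WT roots. Shoot-specific genes averaged 0.470% to 0.968% of the WT shoot mean in pxy roots and 0.608% to 2.65% in WT roots, with WT root replicate 1 the highest. In the library labelled pxy root replicate 2 these shares were 6.36% and 99.0%. Its log2 levels over 20582 genes gave Pearson's r = 0.969 to 0.979 with shoots of pxy and WT, the shallow WT shoot replicate 2 aside, and 0.605 to 0.668 with their roots. This is across genes, which are not independent replicates. Among the 7 libraries kept, pxy root replicate 3 stood apart. Its deviations of log2 level from the mean of the other pxy roots correlated with log2 gene length at r = -0.363 over 18966 genes, where the other pxy roots gave 0.279 and 0.290 and each WT root, set against the other WT roots, gave -0.224 to 0.132. The other pxy roots were set against means that included replicate 3, so their values are not independent of its trend. Genes under 1000 bases had a median deviation of 0.537 in it and genes of at least 4000 bases one of -0.232. Values that turn direction, gain or lose a call or move by over 1.5 times without pxy root replicate 3 are given with and without it.

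PXY itself did not separate the mutant roots from wild type. It stood at 20.7, 14.2 and 19.5 CPM in pxy root replicates 1, 3 and 4, against 23.6, 20.7, 26.2 and 16.4 CPM in WT roots. The groups overlapped, and the lowest library was pxy root replicate 3. The log2 change was -0.26 (SE 0.19, 95% interval -0.63 to 0.10), with an adjusted p of 0.618 in edgeR's quasi-likelihood test. Without that library the change was -0.12 (adjusted p = 0.803, edgeR). The 95% intervals of log2 changes were built from the SE with a normal quantile, which is too narrow for so few libraries. Counts per locus do not show where reads fall in a gene, so they check the level of PXY transcripts and not whether the product is intact. The shoots of the same genotypes had 36.0, 37.6, 31.8 and 36.8 CPM in pxy and 8.73, 8.08 and 10.1 CPM in WT. All 4 mutant shoots lay above all 3 wild-type shoots, and PXY rose by 2.00 on the log2 scale (SE 0.12, adjusted p = 2.83e-09, edgeR). The pxy effect on PXY differed between organs by -2.25 (roots minus shoots, SE 0.23, adjusted p = 0.000354, edgeR). That call held without any 1 of the 14 libraries, with an adjusted p of at most 0.00517, but it was lost with all 16 pxy and WT libraries as labelled (adjusted p = 0.0812) and with the replicate number as a block (-2.23, adjusted p = 0.0863). The library labelled pxy root replicate 2 had 9.01 CPM, within the range of WT shoots.

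The paralogues of PXY were likewise near wild-type levels. PXL1 (AT1G08590), a receptor kinase related to PXY, stood at 45.1, 29.0 and 49.5 CPM in pxy roots, against 40.2, 48.5, 43.2 and 43.4 CPM in WT roots. The pxy libraries spanned the whole WT range, and the log2 change was -0.09 (SE 0.16, adjusted p = 0.846, edgeR). Its direction rested on pxy root replicate 3, without which it was 0.11 (SE 0.09, adjusted p = 0.651). PXL2 (AT4G28650), the other paralogue, stood at 30.8, 27.6 and 31.7 CPM in pxy roots, against 32.7, 38.8, 37.2 and 34.6 CPM in WT roots. All 3 pxy values were below all 4 WT values, but by little, and the log2 change of -0.26 (SE 0.11) had an unadjusted p of 0.0349 and an adjusted p of 0.546.

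Of the ligand genes, only CLE41 had groups that did not overlap. CLE41 (AT3G24770), which encodes a TDIF precursor, stood at 5.58, 9.19 and 8.18 CPM in pxy roots, against 11.3, 10.4, 11.2 and 9.27 CPM in WT roots. The highest pxy library lay just under the lowest WT library, and the log2 change of -0.47 (SE 0.19) had an unadjusted p of 0.0317 and an adjusted p of 0.546 (edgeR). In shoots CLE41 stood at 11.5, 12.7, 12.2 and 8.97 CPM in pxy, against 13.7, 19.4 and 17.1 CPM in WT. The shoot groups did not overlap either, with a log2 change of -0.57 (adjusted p = 0.0579, edgeR). CLE44 (AT4G13195), the second gene for TDIF, stood at 1.53, 2.86 and 1.95 CPM in pxy roots and 3.04, 1.38, 3.15 and 2.73 CPM in WT roots. These groups overlapped (log2 change -0.30, SE 0.34, adjusted p = 0.745), also without pxy root replicate 3, where the change was -0.59 (adjusted p = 0.531). CLE42, whose peptide differs slightly from TDIF, was too low to be tested, at 0.657, 0.835 and 0.389 CPM in pxy roots and 0.646, 0.212, 0.255 and 0.878 CPM in WT roots.

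WOX4 (AT1G46480), through which the receptor promotes cambial division, had the largest difference of the pathway. It stood at 0.438, 0.955 and 1.04 CPM in pxy roots, against 2.58, 1.70, 2.72 and 1.95 CPM in WT roots. These levels rest on 4, 8 and 8 counts in pxy and 28, 16, 32 and 20 counts in WT. Every pxy library was below every WT library. The log2 change was -1.48 (SE 0.37, 95% interval -2.20 to -0.77), the unadjusted p was 0.00223 and the adjusted p over all genes was 0.546 (edgeR). Without pxy root replicate 3 the change was -1.64 with an adjusted p of 0.141. In shoots WOX4 stood at 6.17, 4.96, 3.99 and 5.23 CPM in pxy, against 7.46, 8.87 and 7.70 CPM in WT, again with no overlap (log2 change -0.67, adjusted p = 0.0731). The difference between organs was -0.82 (adjusted p = 0.776). WOX14 (AT1G20700), which acts beside WOX4, stood at 3.39, 7.64 and 3.89 CPM in pxy roots and 5.17, 2.55, 6.04 and 4.20 CPM in WT roots. Here the groups overlapped (log2 change 0.14, SE 0.35, adjusted p = 0.893). The sign was not stable, since the change was -0.32 without pxy root replicate 3, -0.05 without WT root replicate 2 and -0.10 with the replicate number as a block.

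**Figure D1:**
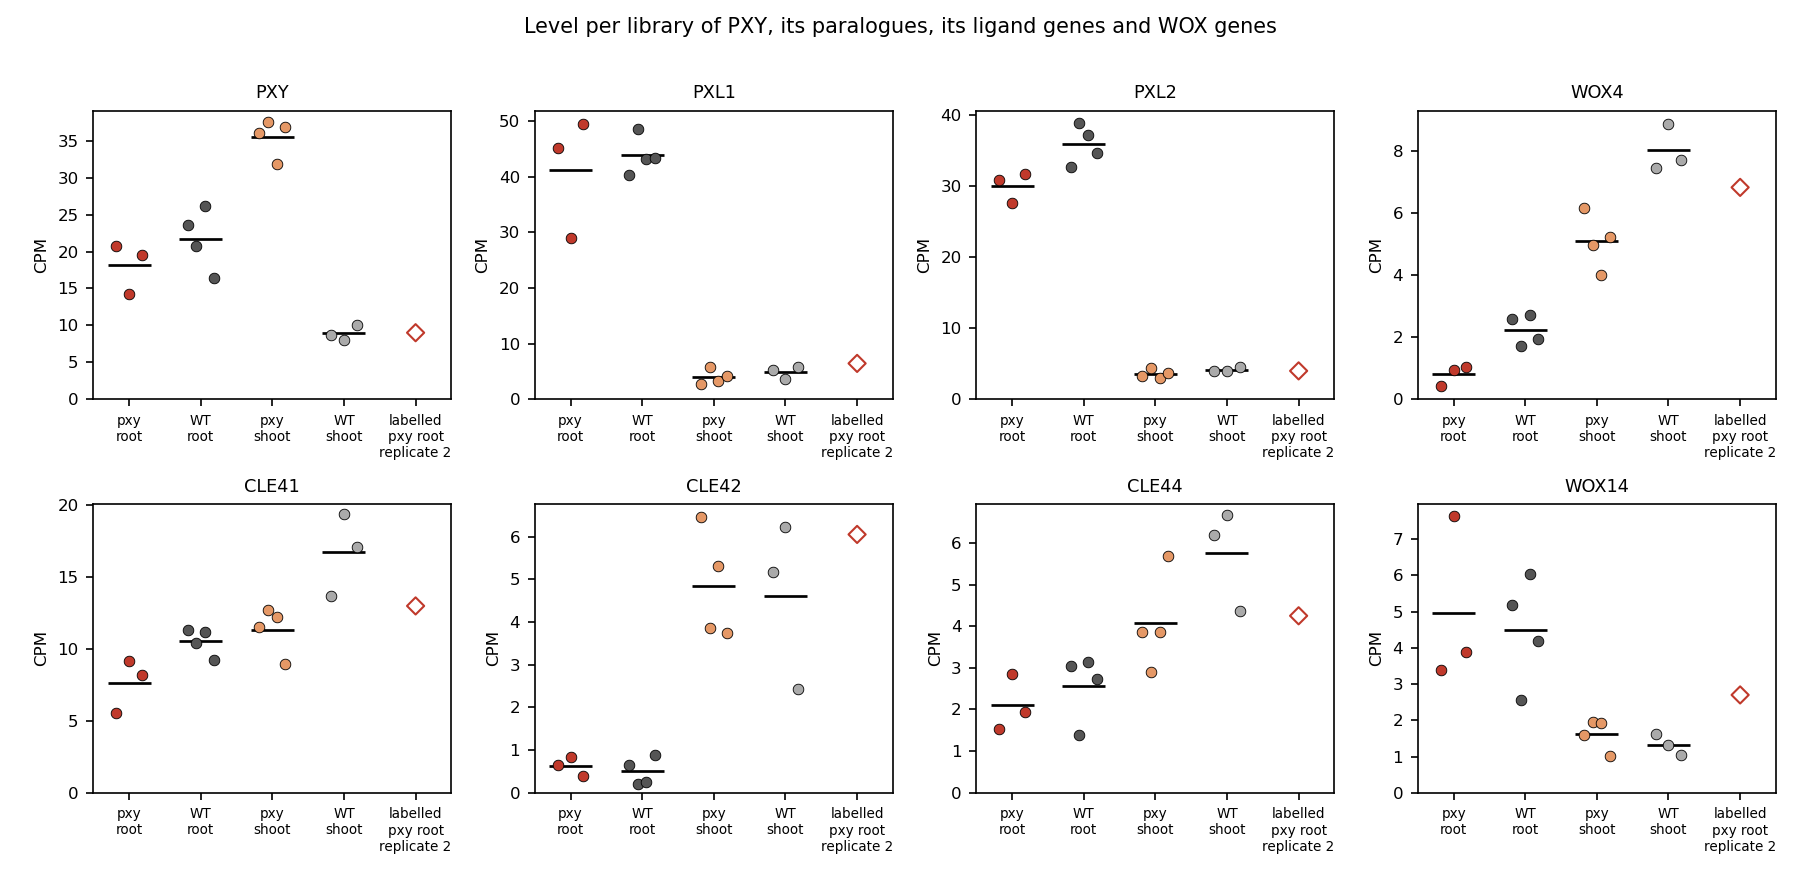
Level in CPM of PXY, its paralogues PXL1 and PXL2, the ligand genes CLE41, CLE42 and CLE44, and WOX4 and WOX14. Each point is 1 library, the bars are group means, and the open diamond is the library labelled pxy root replicate 2; WOX4 is lower in all 3 pxy roots, and PXY is higher in pxy shoots and not in pxy roots.

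The rest of the pathway list differed by less. Of its 24 loci, 19 were tested in roots, and edgeR's test called 0 of them at an adjusted p under 0.05, where 0.02% of all genes tested were called. PXL2, CLE41 and WOX4 were the 3 members with an unadjusted p under 0.05 and the 3 whose groups did not overlap, beside 9.05% and 10.9% of all genes tested, and DESeq2's Wald test called none. The median log2 change was -0.13 over 19 members, with 6 positive and 13 negative, beside -0.00562 over all genes. Without any 1 library the list's median lay between -0.22 (pxy root replicate 4 left out) and -0.00275 (pxy root replicate 3 left out). BIN2, the kinase that PXY activates, had a log2 change of 0.07 (SE 0.08) and its target BES1 one of 0.13 (SE 0.09). LBD4, a transcription factor at the phloem side of the procambium, had one of -0.35 (SE 0.24), and HB8 (HB-8), which marks procambium, one of -0.11 (SE 0.16), which was 0.08 without pxy root replicate 3. MOL1 and RUL1, receptor kinases that repress and promote cambium activity in stems, had changes of -0.14 (SE 0.14) and -0.26 (SE 0.14), the second being -0.13 without pxy root replicate 3. CLE42, LBD3, ERL1, ERL2 and ERF109 did not pass the filter on low counts.

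Across the transcriptome few genes were called between mutant and wild-type roots, which does not show that the rest were unchanged. Of 20012 genes tested, 4 were called at an adjusted p under 0.05 (0.02%), 1 of them higher (0.005%) and 3 lower (0.015%) in pxy. At an unadjusted p under 0.05 there were 1811 genes (9.05%). The groups of libraries did not overlap for 2183 genes (10.9%), of which 1126 were higher (5.63%) and 1057 lower (5.28%) in pxy. The median log2 change was -0.00562 and the quartiles were -0.14 and 0.14. Scaling between libraries centres the changes, so this median is fixed in part by it. The median SE was 0.14, and 16821 genes had an SE under 0.25. The number of calls changed whichever library was left out, most of all with pxy root replicate 3. Without pxy root replicate 3, edgeR called 22 of 20170 genes (0.109%), 12 higher (0.0595%) and 10 lower (0.0496%), and these included all 4. Leaving out pxy root replicate 1 or WT root replicate 1, 3 or 4 left 1 call, and leaving out pxy root replicate 4 or WT root replicate 2 left 2. DESeq2's Wald test on the 7 libraries called 36 of 20010 genes (0.18%), 20 higher and 16 lower, again including all 4. AT5G35935 was the call that remained without any 1 library, with an adjusted p of at most 0.000175.

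**Figure D2:**
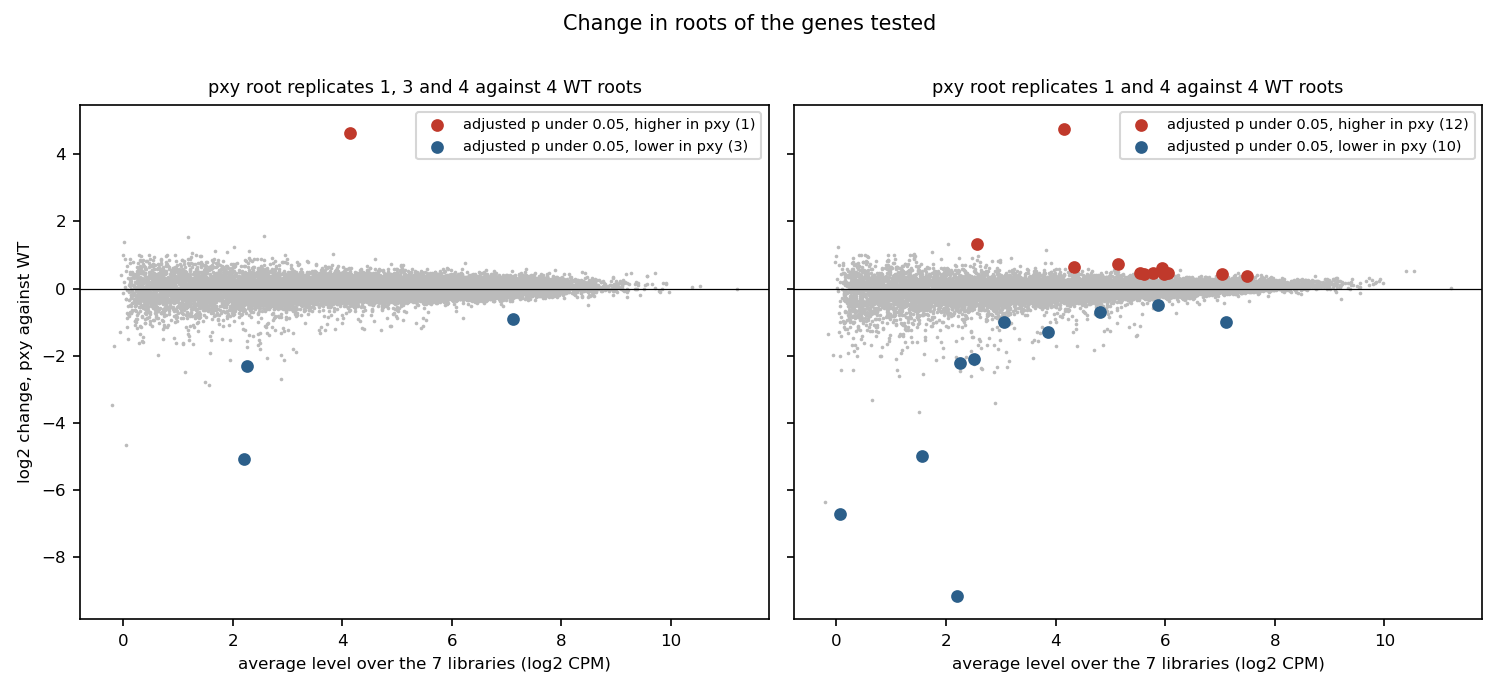
Log2 change between pxy and WT roots against average level in log2 CPM, for each gene tested, with all 3 pxy roots (left) and without pxy root replicate 3 (right). Coloured points are genes called by edgeR at an adjusted p under 0.05: 1 higher and 3 lower on the left, 12 higher and 10 lower on the right. Fitted changes of genes with no count in pxy depend on the prior count.

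The called gene with the smallest p was AT5G35935, a locus on chromosome 5 that the TAIR10.1 annotation lists as a pseudogene. It stood at 41.3, 33.2 and 45.7 CPM in pxy roots, against 1.29, 1.59, 1.53 and 1.95 CPM in WT roots. All 3 pxy libraries were far above all WT libraries, on 377, 278 and 352 counts in pxy and 14, 15, 18 and 20 counts in WT. It rose by 4.65 on the log2 scale (SE 0.18, adjusted p = 2.89e-06, edgeR). The same locus rose in shoots, which share no library with the roots. It stood at 18.6, 20.1, 19.1 and 17.0 CPM in pxy shoots and 0.804, 0.702 and 0.514 CPM in WT shoots (log2 change 4.75, adjusted p = 2.99e-11, edgeR). The library labelled pxy root replicate 2 had 1.03 CPM and 41-OX roots had 0.327 to 1.42 CPM, all below the highest WT root. Of the 50-base words of this locus in TAIR10.1, 0.17% occurred elsewhere in the genome.

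The next gene on the chromosome, AT5G35940, was also called, in the other direction. It encodes a protein of the mannose-binding lectin superfamily and does not overlap AT5G35935. It stood at 76.8, 101 and 98.7 CPM in pxy roots, against 162, 178, 167 and 188 CPM in WT roots. The mutant roots were all lower, and the gene fell by 0.91 on the log2 scale (SE 0.11, adjusted p = 0.0493, edgeR). That call was lost without any 1 library other than pxy root replicate 3, with an adjusted p of 0.124 to 0.297, and it was lost by a little with DESeq2 size factors (0.0512). The gene was nearly off in shoots, at 0.341 to 1.45 CPM in pxy and 1.03 to 2.82 CPM in WT, and was not called there (log2 change -0.73, adjusted p = 0.501). In 41-OX roots it stood at 224 to 247 CPM. AT5G35930, the nearest other tested gene at this place, had a log2 change of -0.12 (adjusted p = 0.680), and of -0.05 without pxy root replicate 3.

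AT2G06845, which the annotation describes as a beta-galactosidase related protein, was almost without reads in the mutant. It had 0, 0.597 and 0 CPM in pxy roots, against 7.01, 5.94, 8.43 and 7.12 CPM in WT roots, from 0, 5 and 0 counts in pxy and 76, 56, 99 and 73 counts in WT. The only mutant root with reads was replicate 3. The gene fell by 5.08 on the log2 scale (SE 0.57, adjusted p = 0.0309, edgeR), and the WT level over the pxy level was 37.0 (95% counting interval 15.7 to 115). This call, too, was lost without any 1 of the other 6 libraries (adjusted p 0.124 to 0.249). Without pxy root replicate 3 it was at least 41.5-fold lower in pxy, taking 3 counts over the group as the floor. In shoots it had 0 counts in all 4 pxy libraries and 8.27, 7.90 and 6.68 CPM in WT, so it was at least 83.7-fold lower in pxy on the same floor. Intervals and floors of this kind leave out every error but counting, and reads copied by PCR are not separate molecules. The library labelled pxy root replicate 2 had 6.44 CPM, a WT level. In 41-OX roots, 3 libraries had 0 CPM and 1 had 0.224 CPM. The neighbouring gene tested, XTH4, which encodes a cell wall xyloglucan endotransglucosylase, had a log2 change of -0.02. That change was -0.18 without pxy root replicate 3 (adjusted p = 0.39, edgeR).

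SADHU3-2 (AT3G42658, chromosome 3) is a Sadhu element, a non-coding retrotransposon, and is listed as a pseudogene. It stood at 1.31, 1.19 and 1.56 CPM in pxy roots, against 6.64, 6.15, 6.98 and 6.93 CPM in WT roots. The groups were well apart on 12, 10 and 12 counts in pxy and 72, 58, 82 and 71 counts in WT. It fell by 2.30 on the log2 scale (SE 0.21, adjusted p = 0.00724, edgeR). The adjusted p was 0.103 without pxy root replicate 1 and 0.0513, 0.0722 and 0.0697 without WT root replicate 1, 3 or 4. In shoots it stood at 2.01, 1.57, 1.69 and 1.02 CPM in pxy and 1.26, 1.76 and 3.47 CPM in WT, and these groups overlapped (log2 change -0.44, adjusted p = 0.647). The difference between organs was not called (-1.85, adjusted p = 0.258). None of its 50-base words occurred elsewhere in TAIR10.1. In 41-OX roots it stood at 3.58 to 5.11 CPM. Of the 4 called genes, 2 were pseudogenes by annotation, a class that made up 1.51% of the genes tested, and so were 3 of the 22 called without pxy root replicate 3 (1.57% of the genes then tested).

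**Figure D3:**
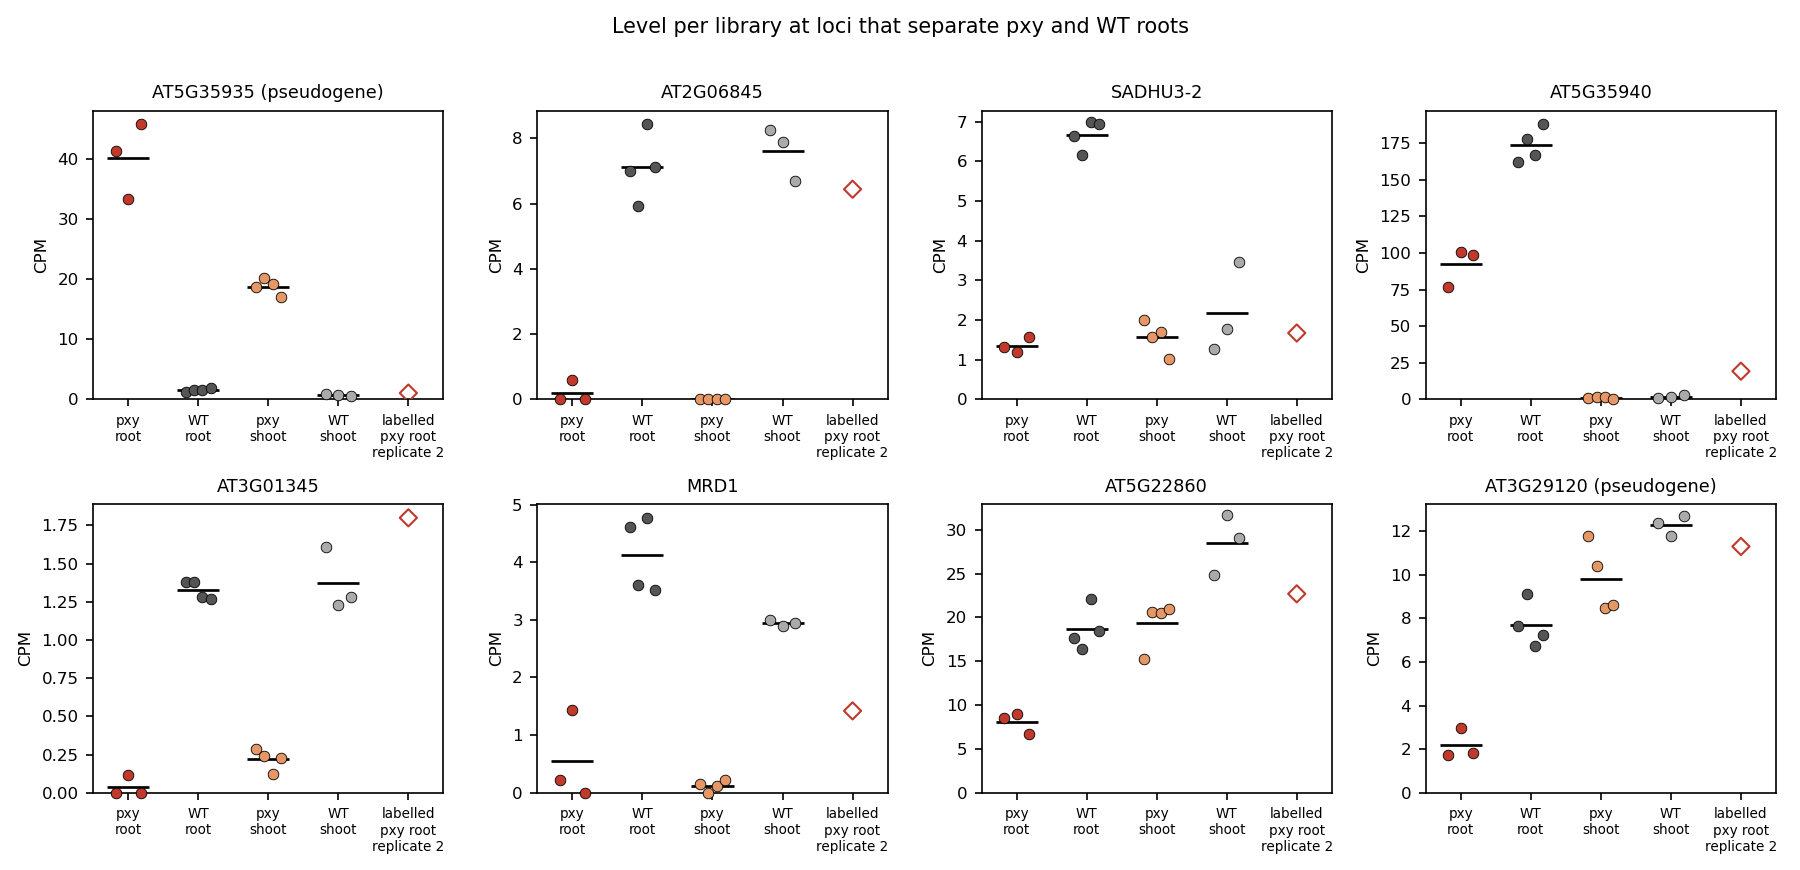
Level in CPM at 8 loci that separated pxy and WT roots, of which the first 4 were called. Each point is 1 library and bars are group means. The pxy and WT roots do not overlap in any panel, and the library labelled pxy root replicate 2 (open diamond) lies near WT at AT5G35935 and AT2G06845.

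The other genes with the smallest p missed edgeR's threshold with all 7 libraries and the filter on low counts. On the same libraries DESeq2's Wald test called all 6 of those described here, AT5G22860, AT3G29120, ZIP3, AT4G14548, AT1G22290 and AT4G04223, with adjusted p-values of 9.72e-07 to 0.0154. With no filter on low counts edgeR called AT5G22860 (0.0188), AT3G29120 (0.0188) and AT4G14548 (0.0499), and with 41-OX in a fit of 11 root libraries it called AT5G22860 (0.00568), AT3G29120 (0.00568) and ZIP3 (0.0303). AT5G22860, a serine carboxypeptidase of family S28, stood at 8.54, 8.95 and 6.75 CPM in pxy roots, against 17.7, 16.4, 22.1 and 18.5 CPM in WT roots. Its pxy libraries were all lower, with a log2 change of -1.21 (SE 0.16, adjusted p = 0.0682) and of -1.29 without pxy root replicate 3 (adjusted p = 0.0011, edgeR). In shoots it fell by 0.56 on the log2 scale (adjusted p = 0.0189), with 15.3, 20.6, 20.5 and 21.0 CPM in pxy and 24.8, 31.7 and 29.1 CPM in WT, a call lost without WT shoot replicate 3 (adjusted p = 0.144). AT3G29120, a pseudogene, stood at 1.75, 2.98 and 1.82 CPM in pxy roots, against 7.66, 9.12, 6.73 and 7.22 CPM in WT roots. The groups did not overlap (log2 change -1.81, SE 0.24, adjusted p = 0.0682), but 73.0% of its 50-base words occurred elsewhere in the genome, so its count is uncertain. Without pxy root replicate 3 the log2 change of AT3G29120 was -2.095 (adjusted p = 0.000586, edgeR). In the other direction, ZIP3, a zinc transporter of the root, stood at 75.5, 73.6 and 77.9 CPM in pxy roots, against 44.9, 51.1, 50.9 and 55.1 CPM in WT roots. Its mutant values were tight and all higher, with a log2 change of 0.58 (SE 0.09, adjusted p = 0.177) and of 0.60 without pxy root replicate 3 (adjusted p = 0.00293, edgeR). AT4G14548, a non-coding RNA, stood at 8.43, 12.5 and 7.53 CPM in pxy roots and 3.69, 2.55, 2.64 and 3.81 CPM in WT roots (log2 change 1.58, SE 0.24, adjusted p = 0.161). Its change was 1.33 without pxy root replicate 3 (adjusted p = 0.0206, edgeR). The remaining positive changes by smallest p were AT1G22290, of the 14-3-3 family, with a log2 change of 0.87 (adjusted p = 0.401), and the non-coding RNA AT4G04223 with one of 1.00 (adjusted p = 0.401).

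Further genes missed edgeR's threshold with all 7 libraries and passed it when pxy root replicate 3 was left out, and those described here were chosen after their values were seen. AT3G01345, annotated with a glycoside hydrolase domain of family 35, had 0, 0.119 and 0 CPM in pxy roots, against 1.38, 1.38, 1.28 and 1.27 CPM in WT roots. That is 1 count in 3 pxy libraries and 56 counts in 4 WT libraries, a ratio of WT over pxy of 34.1 (95% counting interval 5.88 to 1370). Its adjusted p was 0.0993 with 7 libraries, 0.0199 without that library and 0.0303 with 41-OX in a fit of 11 libraries that kept it. It fell in shoots too, with 0.287, 0.242, 0.121 and 0.227 CPM in pxy and 1.61, 1.23 and 1.28 CPM in WT (log2 change -2.58, adjusted p = 0.00783, edgeR), a call lost without WT shoot replicate 1 (adjusted p = 0.0588). It shared none of its 50-base words with AT2G06845. MRD1, a gene first described from a methionine over-accumulating mutant, had 0.219, 1.43 and 0 CPM in pxy roots, against 4.61, 3.61, 4.77 and 3.51 CPM in WT roots. The highest pxy library was again replicate 3, and the adjusted p was 0.546 with it and 0.00035 without it in edgeR, and 0.00225 with it in DESeq2. In shoots MRD1 had 0.143, 0, 0.121 and 0.227 CPM in pxy and 2.99, 2.90 and 2.95 CPM in WT, a fall of 4.42 on the log2 scale (adjusted p = 2.86e-05, edgeR).

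A receptor kinase and a peroxidase were in the same set. SKM1 (AT2G25790), a leucine-rich repeat receptor kinase known from pollen tube growth as a CLE peptide receptor, stood at 22.3, 13.6 and 20.3 CPM in pxy roots, against 37.4, 32.3, 36.5 and 31.2 CPM in WT roots. The groups did not overlap, with a log2 change of -0.88 (SE 0.16, adjusted p = 0.504 in edgeR and 0.00225 in DESeq2), and of -0.69 without pxy root replicate 3 (adjusted p = 0.0156, edgeR). The peroxidase gene AT2G35380 stood at 210, 222 and 197 CPM in pxy roots, against 157, 156, 156 and 159 CPM in WT roots. All 3 mutant roots were higher (log2 change 0.42, SE 0.08, adjusted p = 0.44 in edgeR and 8.45e-05 in DESeq2), and the adjusted p was 0.0267 without pxy root replicate 3. AT2G48130, a lipid-transfer protein, had a log2 change of 0.43 without that library (adjusted p = 0.0166). WRKY72, a transcription factor of defence, had one of -0.50 (adjusted p = 0.0339), and RVE2, a MYB-like factor of the clock family, had one of 0.43 (adjusted p = 0.0484).

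Lists of genes for root cell types and responses were read by their counts, since they were chosen with results of these data known. The 30 lists held 473 loci, of which 410 were tested. With all 7 libraries edgeR called 0 of these 410, where it called 0.02% of all genes tested. At an unadjusted p under 0.05 there were 60 (14.6%, against 9.05% of all genes), and 55 had groups that did not overlap (13.4%, against 10.9%). The 60 became 40 without WT root replicate 1 and 86 without pxy root replicate 3. DESeq2 called 4 of the 410, HRS1, CASP1, TT4 and FLS1, where it called 0.18% of all genes tested.

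**Figure D4:**
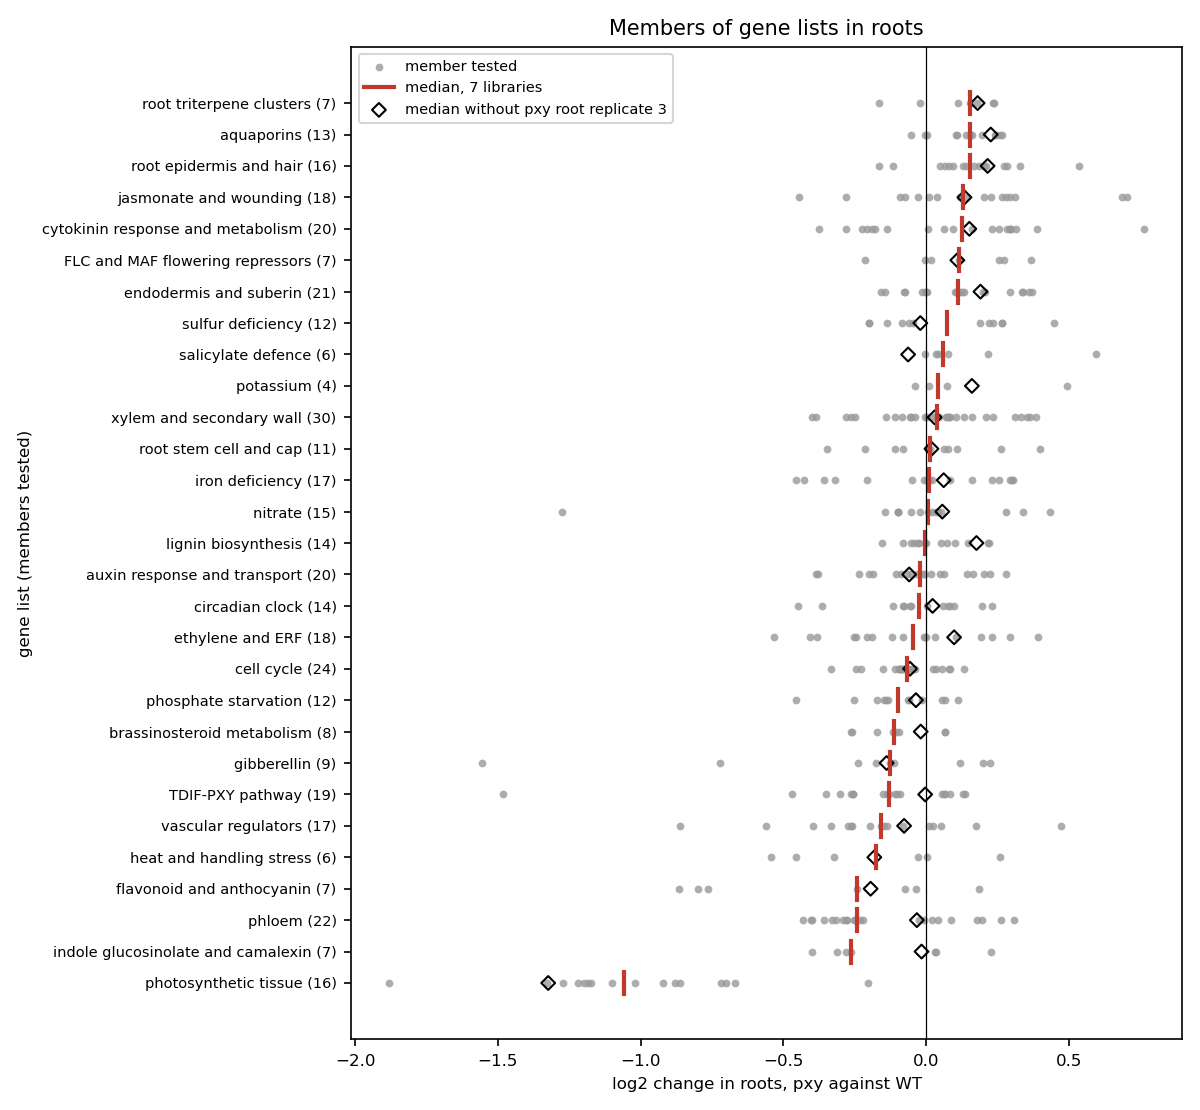
Log2 change in roots, pxy against WT, of each tested member of the gene lists. Grey points are members, the red bar is the median with 7 libraries and the open diamond the median without pxy root replicate 3. Photosynthetic genes have the lowest median, -1.06, and the other medians lie between -0.26 and 0.16.

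Regulators of the vascular cylinder outside the PXY pathway were, on balance, slightly below wild type. Of 17 tested, 5 changes were positive and 12 negative, with a median of -0.16 (-0.08 without pxy root replicate 3, -0.24 without pxy root replicate 4), and 0 were called. ANT, an AP2 factor of dividing organ and cambium cells, stood at 4.82, 4.30 and 7.01 CPM in pxy roots, against 12.5, 6.89, 11.9 and 7.52 CPM in WT roots. Its groups overlapped only between pxy root replicate 4 and WT root replicate 2 (log2 change -0.86, SE 0.27, unadjusted p = 0.00992, adjusted p = 0.546). TMO5 (AT3G25710), a bHLH factor that starts vascular divisions in the embryo and root tip, stood at 35.4, 39.0 and 35.0 CPM in pxy roots and 45.6, 38.4, 47.4 and 43.7 CPM in WT roots. Here too only 1 library of each group crossed (log2 change -0.26, SE 0.10, unadjusted p = 0.029). The HD-ZIP III genes REV, PHB and CNA, which pattern xylem, had log2 changes of -0.26, -0.20 and -0.27, and these were -0.07, 0.04 and -0.08 without pxy root replicate 3.

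Conducting tissues showed no called change. In phloem, no tested member had groups that did not overlap, against 10.9% of all genes tested. Of its 22 tested members, 7 were positive and 15 negative, with a median of -0.24. That median was -0.03 without pxy root replicate 3 and -0.38 without pxy root replicate 4. BAM3, the receptor of protophloem, stood at 94.2, 63.7 and 101 CPM in pxy roots, against 105, 105, 123 and 88.7 CPM in WT roots. The low value was that of replicate 3 (log2 change -0.29, SE 0.16, adjusted p = 0.564, and -0.12 without it). SUC2, the sucrose loader of companion cells, had 41.2, 30.8 and 55.3 CPM in pxy roots and 53.4, 43.7, 56.4 and 47.7 CPM in WT roots (log2 change -0.25, SE 0.18, adjusted p = 0.62, and -0.07 without that replicate). Xylem and secondary wall genes were balanced, with 18 of 30 positive and a median of 0.04 (-0.03 without pxy root replicate 4). The cellulose synthases of the secondary wall, CESA4, CESA7 and CESA8, had changes of -0.25, -0.04 and -0.26, and of -0.04, 0.13 and -0.01 without pxy root replicate 3. VND7, the master switch of protoxylem vessels, stood at 7.33, 7.52 and 5.97 CPM in pxy roots and 5.44, 4.35, 6.04 and 5.37 CPM in WT roots. The lowest pxy library lay just below the highest WT library (log2 change 0.39, SE 0.18, adjusted p = 0.546). BFN1, a nuclease of dying xylem cells, stood at 69.0, 88.0 and 63.5 CPM in pxy roots, against 52.5, 60.9, 55.7 and 59.0 CPM in WT roots. Its 3 pxy values were the highest (log2 change 0.37, SE 0.12, unadjusted p = 0.0118, adjusted p = 0.546, and 0.22 without pxy root replicate 3). Lignin genes had a median of -0.00207 over 14 members, 7 positive and 7 negative, and one of 0.18 with all 14 positive without pxy root replicate 3.

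Outer root tissues had more positive than negative values. In endodermis and suberin, 15 of 21 tested members were positive with a median of 0.11. Of these 21 members, 5 had pxy values all above WT, against 5.63% of all genes. That median was 0.07 without pxy root replicate 1 and 0.19 without pxy root replicate 3. CASP1, a scaffold of the Casparian strip, stood at 178, 185 and 205 CPM in pxy roots, against 142, 155, 147 and 142 CPM in WT roots. The mutant roots were all higher, with a log2 change of 0.37 (SE 0.08, unadjusted p = 0.00124, adjusted p = 0.546 in edgeR and 0.0232 in DESeq2). Groups did not overlap either for CASP5, the peroxidase gene PER64 and the suberin reductase gene FAR5, with log2 changes of 0.36, 0.29 and 0.34. In root epidermis and hairs, 14 of 16 members were positive with a median of 0.16. Without pxy root replicate 3 the median was 0.22, with 11 positive and 5 negative. With all 7 libraries 1 member had pxy values all above WT and 1 had them all below, against 5.63% and 5.28% of all genes. MRH6, a root hair gene, stood at 72.0, 80.1 and 61.1 CPM in pxy roots, against 46.1, 57.7, 45.9 and 46.5 CPM in WT roots. Its groups did not overlap (log2 change 0.54, SE 0.12, unadjusted p = 0.00127, adjusted p = 0.546). Aquaporins had 11 of 13 positive with a median of 0.16 (0.07 without pxy root replicate 4), and TIP1;1 (GAMMA-TIP), a channel of the vacuole membrane, stood at 587, 563 and 700 CPM in pxy roots and 491, 546, 524 and 493 CPM in WT roots (log2 change 0.27, SE 0.10, adjusted p = 0.546).

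Cytokinin genes leaned upward and cell cycle genes downward, both by little. Of 20 tested cytokinin members, 13 were positive with a median of 0.13 (0.07 without WT root replicate 2), and 5 had pxy values all above WT, against 5.63% of all genes. The type-A response regulators, which cytokinin induces and which damp its signal, were among them. ARR5 (RR5) stood at 116, 133 and 107 CPM in pxy roots, against 100, 95.5, 90.8 and 101 CPM in WT roots. All 3 mutant roots were higher (log2 change 0.30, SE 0.09, unadjusted p = 0.0104, adjusted p = 0.546). ARR8 (RR3) had a change of 0.32, ARR3 one of 0.30 and ARR6 one of 0.28 (0.19 without pxy root replicate 3). Of 24 cell cycle members, 6 were positive and 18 negative, with a median of -0.07, which was -0.13 without pxy root replicate 4 and -0.02 without pxy root replicate 1. CYCD3;1, a D-type cyclin of cambium and other dividing cells, stood at 22.2, 23.6 and 26.1 CPM in pxy roots, against 30.4, 29.1, 32.8 and 28.4 CPM in WT roots. The groups were apart (log2 change -0.33, SE 0.11, unadjusted p = 0.0114, adjusted p = 0.546), and CYCD3;2 had a change of -0.23.

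Flavonoid genes included 2 that DESeq2, which called 0.18% of all genes tested, called lower and edgeR did not call. Of 7 tested, 1 was positive and 6 negative, with a median of -0.24 (-0.19 without pxy root replicate 3). This balance rested on single libraries and on the filter, with 4 positive and 4 negative without pxy root replicate 4 (median -0.14), 3 and 4 without WT root replicate 2, and 5 and 8 with no filter on low counts (median -0.08). TT4, chalcone synthase, the entry enzyme of the pathway, stood at 59.5, 40.5 and 49.5 CPM in pxy roots, against 93.1, 107, 93.6 and 70.0 CPM in WT roots. Every pxy root was lower, with a log2 change of -0.87 (SE 0.16, adjusted p = 0.504 in edgeR and 0.00225 in DESeq2). FLS1, flavonol synthase, stood at 18.3, 13.8 and 15.4 CPM in pxy roots, against 25.4, 31.6, 32.5 and 21.0 CPM in WT roots. It was apart as well (log2 change -0.80, SE 0.18, adjusted p = 0.546 in edgeR and 0.0347 in DESeq2). TT5, chalcone isomerase, had a change of -0.76 (SE 0.23, adjusted p = 0.546).

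Nutrient and hormone genes gave scattered values. HRS1, a nitrate-induced repressor of primary root growth, stood at 120, 122 and 123 CPM in pxy roots, against 97.3, 89.2, 102 and 95.6 CPM in WT roots. The groups were apart (log2 change 0.34, SE 0.08, adjusted p = 0.546 in edgeR and 0.0312 in DESeq2). The nitrate list had a median of 0.01 over 15 members (0.06 without pxy root replicate 3). IRT1, the iron transporter of the epidermis, stood at 71.4, 47.7 and 75.8 CPM in pxy roots, against 89.8, 102, 82.4 and 82.2 CPM in WT roots. It was lower in each pxy root (log2 change -0.45, SE 0.15, adjusted p = 0.546), and FRO2, the iron reductase that works with it, had a change of -0.43. Without pxy root replicate 3 the changes of IRT1 and FRO2 were -0.27 and -0.25. The iron list as a whole had 10 of 17 tested members positive and 7 negative, with a median of 0.01. That median was 0.06 without pxy root replicate 3 and -0.04 without pxy root replicate 1. ACS6, an ethylene synthesis gene, stood at 15.0, 12.2 and 16.4 CPM in pxy roots, against 20.6, 19.0, 19.8 and 24.4 CPM in WT roots. These groups did not overlap (log2 change -0.53, SE 0.15, unadjusted p = 0.0044, adjusted p = 0.546). ACS6 had the lowest change of the ethylene list, in which 7 of 18 tested members were positive and 11 negative, with a median of -0.04. That median was 0.10, with 13 positive and 5 negative, without pxy root replicate 3, and -0.26 without pxy root replicate 1. Lists for other hormones held no call. Auxin genes had a median of -0.02 over 20 members (-0.06 to 0.02 without any 1 library). Brassinosteroid genes had one of -0.11 over 8, which was -0.02 with 4 positive and 4 negative without pxy root replicate 3 and -0.20 without pxy root replicate 1. Gibberellin genes had one of -0.13 over 9 (-0.05 without WT root replicate 3, -0.20 without pxy root replicate 4). Jasmonate genes had one of 0.13 over 18, with 13 positive (0.08 without WT root replicate 4).

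Photosynthetic genes, a check for shoot tissue in the root samples, were all on the same side. All 16 were negative, with a median log2 change of -1.06. Of these, 9 had an unadjusted p under 0.05, against 9.05% of all genes. The pxy values lay all below WT for 3, against 5.28% of all genes, but 0 of the 16 were called by edgeR or by DESeq2. The summed level was 304, 414 and 272 CPM in pxy root replicates 1, 3 and 4, against 1020, 355, 438 and 538 CPM in WT roots. The sums overlapped, and the high one was WT root replicate 1, without which the median was -0.48. WT shoots held 22100 to 23300 CPM of the same genes and the library labelled pxy root replicate 2 held 23100 CPM. Stomatal genes, also of the shoot, summed to 0.438 to 1.07 CPM in pxy roots and 0.586 to 1.38 CPM in WT roots, and none passed the filter. The part of shoot tissue in the values of other genes was not tested.

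The shoot libraries of the same genotypes gave a longer list. Of 19487 genes tested in shoots, 328 were called (1.68%), 69 higher (0.354%) and 259 lower (1.33%) in pxy. The 328 became 165 without pxy shoot replicate 3, 168 without WT shoot replicate 1 and 157 without WT shoot replicate 3. In roots 277 of these 328 were tested, and 2 were called, AT5G35935 and AT2G06845 (0.722%, against 0.02% of all genes tested in roots). Of the 61 shoot-higher genes tested in roots, 45 had a positive root change, with a median of 0.10 (0.06 without pxy root replicate 3). Of the 216 shoot-lower genes, 143 had a negative root change, with a median of -0.09. Their median changes in shoots were 0.45 and -0.58. Over all 20012 genes tested in roots, 9789 root changes were positive and 10223 negative. The difference between organs was called for 4 of 21147 genes (0.0189%), PXY and 3 more, which the naming rule did not give and which were named after their values were seen. WRKY33, a regulator of camalexin and defence against fungi, averaged 59.0 ± 9.35 CPM in pxy roots (SD, n = 3) and 62.1 ± 9.43 CPM in WT roots (SD, n = 4). In shoots it averaged 36.0 ± 3.56 CPM in pxy (SD, n = 4) and 82.7 ± 5.02 CPM in WT (SD, n = 3). Its root groups overlapped in level and it fell in shoots by 1.20 on the log2 scale (adjusted p = 3.67e-08), and the difference, roots minus shoots, was 1.13 (SE 0.18, adjusted p = 0.0411, edgeR). NHL3, a membrane protein of the defence response, averaged 46.2 ± 0.685 CPM in pxy roots and 42.4 ± 4.66 CPM in WT roots, against 66.3 ± 3.36 CPM in pxy shoots and 105 ± 1.00 CPM in WT shoots (difference 0.79, SE 0.12, adjusted p = 0.0411). AT3G04640, a glycine-rich protein, averaged 15.7 ± 1.55 CPM in pxy roots and 14.9 ± 2.95 CPM in WT roots, against 24.2 ± 3.64 CPM in pxy shoots and 60.6 ± 10.9 CPM in WT shoots (difference 1.41, SE 0.23, adjusted p = 0.0421). The 4 calls became 25 without pxy root replicate 3, 9 without pxy root replicate 4 or WT shoot replicate 4, 3 without WT root replicate 3, 2 without WT root replicate 1 and 1, PXY, without any other library.

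**Figure D5:**
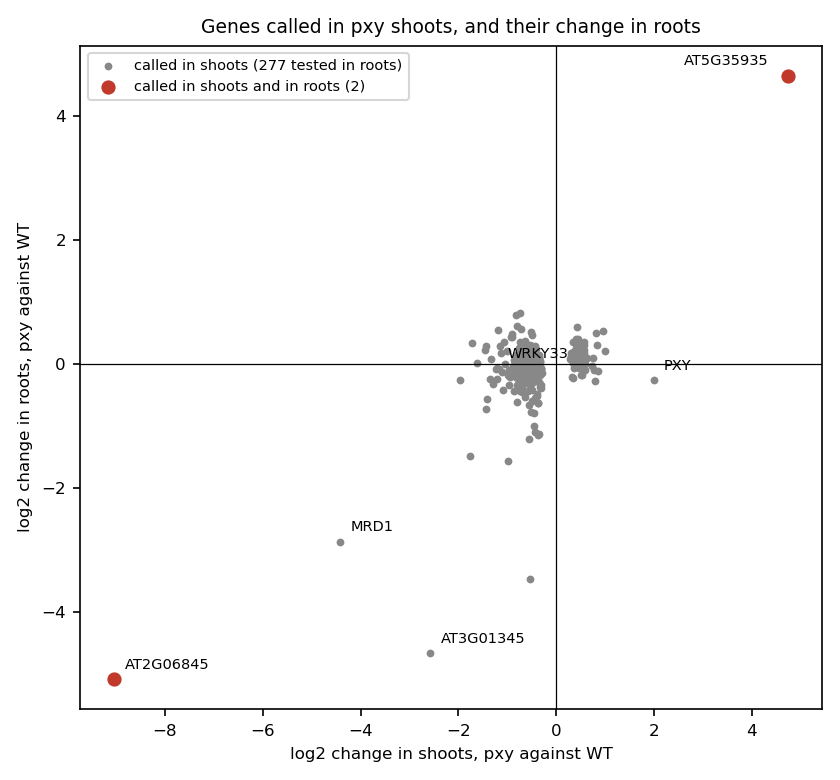
Log2 change in roots against log2 change in shoots, pxy against WT, for the 277 genes called in shoots and tested in roots. Red points are the 2 genes called in both organs, AT5G35935 and AT2G06845; PXY lies at 2.00 in shoots and -0.26 in roots. The fitted change of AT2G06845 in shoots depends on the prior count, since pxy shoots had no count.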

How the data were processed

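Counts were analysed for 7-day-old seedlings. The values are unnormalized read counts per locus as deposited, made by the authors with CASAVA, TopHat2 and HTSeq on TAIR10, per the submitters' processing notes, which give no versions. Libraries followed the protocol of Kumar and colleagues, per the labels. Whether the 2 technical replicates per sample were pooled, and whether counting used strand, is not given in the sources used here. Names and biotypes came from TAIR10.1, in which 32835 of 33602 loci had a row. Reads with no feature were 2.11% to 2.79% of each root library used and stayed out of totals.

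The tests used edgeR 4.0.16 under R 4.3.3 (filterByExpr, TMM, robust quasi-likelihood F-test, two-sided), with Benjamini-Hochberg adjustment over all genes tested and calls at an adjusted p under 0.05. Roots (7 libraries), shoots (pxy 1 to 4, WT 1, 3 and 4; WT shoot replicate 2 held 167131 counts) and roots minus shoots (14 libraries) were fitted apart. DESeq2 1.42.0 and the settings listed in the closing section were alternatives. Changes are log2 with SE; levels are TMM-scaled CPM, or plain CPM for 41-OX and the libraries left out. The procedure was tested on simulated data.

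The comparison, libraries and gene lists were chosen with earlier results of these data known. Genes named were the 8 of the receptor, ligands and WOX genes, up to 10 called rises and falls whose average log2 CPM reached 1, up to 4 called members per list, the 5 smallest p-values per direction, and up to 5 genes called both in roots and between organs. List members were also described after their values were seen.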

Additional observations from a re-analysis of the deposited data

Results flagged for a closer look

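The pxy effect differed between organs at 4 genes, by a test of the difference itself (log2, roots minus shoots, edgeR). The difference was -2.251 for PXY, 1.132 for WRKY33, 0.791 for NHL3 and 1.405 for AT3G04640. A single library stood far from the rest of its group at 3 named genes, all in pxy shoots. AT1G22290 had 1.57 CPM in pxy shoot replicate 2, where the other 3 had 0.242 to 0.454 CPM. AT5G22860 had 15.3 CPM in pxy shoot replicate 1, where the others had 20.5 to 21.0 CPM, and AT4G39840 had 3.87 CPM in the same library, where the others had 5.08 to 5.32 CPM. These were 3 of 63 groups checked, and chance gives about 1 in 20. The library labelled pxy root replicate 2, which entered alternative settings only, held 23100 CPM of photosynthetic genes.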

How the results depend on the processing

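The root result of 4 calls (1 higher, 3 lower in pxy) became 7 (2 and 5) with no low-count filter, 36 (20 and 16) with DESeq2, 8 (2 and 6) with 41-OX in a fit of 11 libraries, and 0 (0 and 0) with pxy root replicate 2 kept as labelled. It was 10 (2 and 8) with 41-OX and without pxy root replicates 2 and 3, a fit chosen after seeing the data. Leaving out 1 library gave 1 to 22 calls (1 to 12 higher, 0 to 10 lower). With the replicate block it was 1 (1 and 0). Deviations of same-numbered libraries correlated at r = -0.175, -0.078 and -0.030, and those of differently numbered ones at r = -0.148 to 0.215. With so few pairs this cannot show whether the numbers pair the samples. The other root settings, at least 10 counts, DESeq2 size factors, a fold threshold of 0.5 and genes within 4-fold between organs, gave 3 calls each. Over the 18 settings AT5G35935 was called in 17, SADHU3-2 in 12, AT2G06845 in 10 and AT5G35940 in 6. The 328 shoot calls became 631 (165 higher, 466 lower) with no filter and 157 to 398 (25 to 100 higher, 132 to 311 lower) without 1 library. The 4 organ differences (3 higher, 1 lower) became 52 (41 and 11) with DESeq2, 1 (0 higher) with at least 10 counts, 0 (0 and 0) with the replicate block and with all 16 libraries, with PXY lost in both, and 1 to 25 (0 to 20 higher, 1 to 5 lower) without 1 library. With pxy root replicate 2 kept, list medians took the other sign for endodermis (-0.17), root epidermis (-0.19), aquaporins (-0.05), xylem (-0.19), the PXY pathway (0.06), photosynthetic genes (3.89), auxin (0.51), root stem cells (-0.30), root triterpenes (-0.20), potassium (-0.19), circadian genes (0.12) and gibberellin (0.00425), and without pxy root replicate 4 the xylem median was -0.03. The causes were not tested. Depth limits the genes at a few counts, such as WOX4 and CLE42.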
